A study of Homo sapiens with 6 samples.

Results

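SR proteins and hnRNPs are the 2 large families of RNA-binding proteins that steer pre-mRNA splicing. The genes described here are all count rows named SRSF plus a number or starting with HNRNP, without pseudogene and antisense rows, together with TRA2A, TRA2B, PTBP1, PTBP2, PTBP3, SRPK1, SRPK2, CLK1, CLK2, CLK3 and CLK4. They are 46 of 56638 listed gene symbols, and 43 of them were among the 14685 genes with enough reads to be tested. Their transcript levels were compared between 3 libraries of cells labelled HT29, an established human colorectal cancer line, that received a nonspecific control siRNA, and 3 libraries of the same labelled line after siRNA against RNF6, a RING-type ubiquitin ligase (the knockdown libraries). All 6 libraries were made from total RNA of wild-type cells, and no other genetic change or agent is named. Neither the number of siRNA sequences nor the harvest time is given in the sources used here, so effects of the siRNA sequence itself and of the loss of RNF6 cannot be told apart.

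An SR protein carries RNA recognition motifs and a tail rich in arginine-serine dipeptides. It binds exonic enhancers and helps to recruit the U1 particle and the U2AF dimer to the neighbouring splice sites. The hnRNPs coat nascent RNA and often, though not always, favour exon skipping. SRPK kinases phosphorylate the tail in the cytoplasm, transportin-3 (TNPO3) then carries the SR protein into the nucleus, and the nuclear CLK kinases phosphorylate it further. Many of these genes limit their own mRNA by including a poison exon or retaining an intron, which yields transcripts that are degraded or held in the nucleus. A count per gene adds productive and unproductive transcripts together.

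Reads assigned to genes ranged from 6808771 to 11071456 per library. The target RNF6 fell 3.17-fold in the knockdown libraries (edgeR adjusted p = 2.12e-06). Of 12 markers of colon epithelium, EPCAM, CDH1, CDX2 and 4 keratins had enough reads to be tested, whereas VIL1, CEACAM5 and LGALS4 had 11, 5 and 5 reads over all libraries together and CDX1 and TFF3 had 0. Villin (VIL1), carcinoembryonic antigen (CEACAM5) and galectin-4 (LGALS4) are usually found in HT29 cells, so these reads go against the label, and the identity of the line was not tested. KRT8, KRT18, KRT19 and KRT20 were called lower after RNF6 siRNA, KRT20 at a mean of only 1.31 CPM. EPCAM, CDH1 and CDX2 were not called, with log2 fold changes of 0.06, 0.10 and 0.01. Summed markers of leukocytes stayed between 0.886 and 3.09 CPM and those of endothelium between 0.897 and 2.35 CPM. The endothelial marker VWF, at a mean of 1.48 CPM, fell 2.02-fold (adjusted p = 0.0283). The 3 neuronal markers, none of them called, summed to between 32.1 and 49.1 CPM. Most of this sum was MAP2, at 33.4 ± 4.99 CPM in the control libraries and 38.0 ± 6.33 CPM in knockdown libraries. The 5 fibroblast markers summed to between 49.5 and 64.1 CPM in the control libraries and between 68.9 and 83.1 CPM in knockdown libraries, nearly all of it COL1A1, which rose 1.33-fold (adjusted p = 0.0197), while COL1A2, COL3A1, DCN and LUM had 2 to 11 reads each. The part of these markers in the results below was not tested. In bulk RNA, fewer cells of a kind and less RNA per cell cannot be told apart.

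Splicing-factor transcripts moved by small steps and in both directions. Of the 43 tested genes, 11 were called higher and 4 lower after RNF6 siRNA at an adjusted p below 0.05, which is 34.9% of them. Among all genes tested 32.7% were called, 16.6% higher and 16.1% lower, so the share of called splicing genes lay near the background. The median log2 fold change was 0.09 against 0.01 for all genes. No member reached a 2-fold difference, a size found in 5.97% of all genes tested, and the largest fold was 1.45. The median size of the log2 fold change, whatever its sign, was 0.17 against 0.28 for all genes. Control and knockdown libraries were fully separated for 24 of the 43, or 55.8%, compared with 44.2% of all genes tested. The lowest mean level was 18.5 CPM among the members and 0.730 CPM among all genes tested. These comparisons were not matched for level.

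The calls were unevenly spread over the classes. The 4 kinase genes CLK1, CLK3, CLK4 and SRPK1 rose and none of the 6 kinases fell, all 6 log2 fold changes being above 0. Of 11 tested SR proteins, SRSF1 and SRSF4 rose. Of 21 tested hnRNPs, HNRNPU, HNRNPL, HNRNPA1 and HNRNPH2 rose and HNRNPUL2, HNRNPD, HNRNPDL and HNRNPF fell. PTBP3 was the member that rose among 3 polypyrimidine tract binding proteins, and neither TRA2 gene was called. With so few genes in a class, and no test between classes, these counts are a description. Leaving out 1 library at a time gave between 2 and 12 members higher and between 2 and 5 lower. The lowest counts, 2 and 2, came without control replicate 3, where 20.8% of all genes tested were called, against 9.30% of the members. Without knockdown replicate 3 they were 6 and 2, or 18.6% of the members, against 20.2% of all genes tested. Without knockdown replicate 2 they were 7 and 3 (23.3% against 24.5%), and without knockdown replicate 1, 9 and 2 (25.6% against 30.4%).

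**Figure D1:**
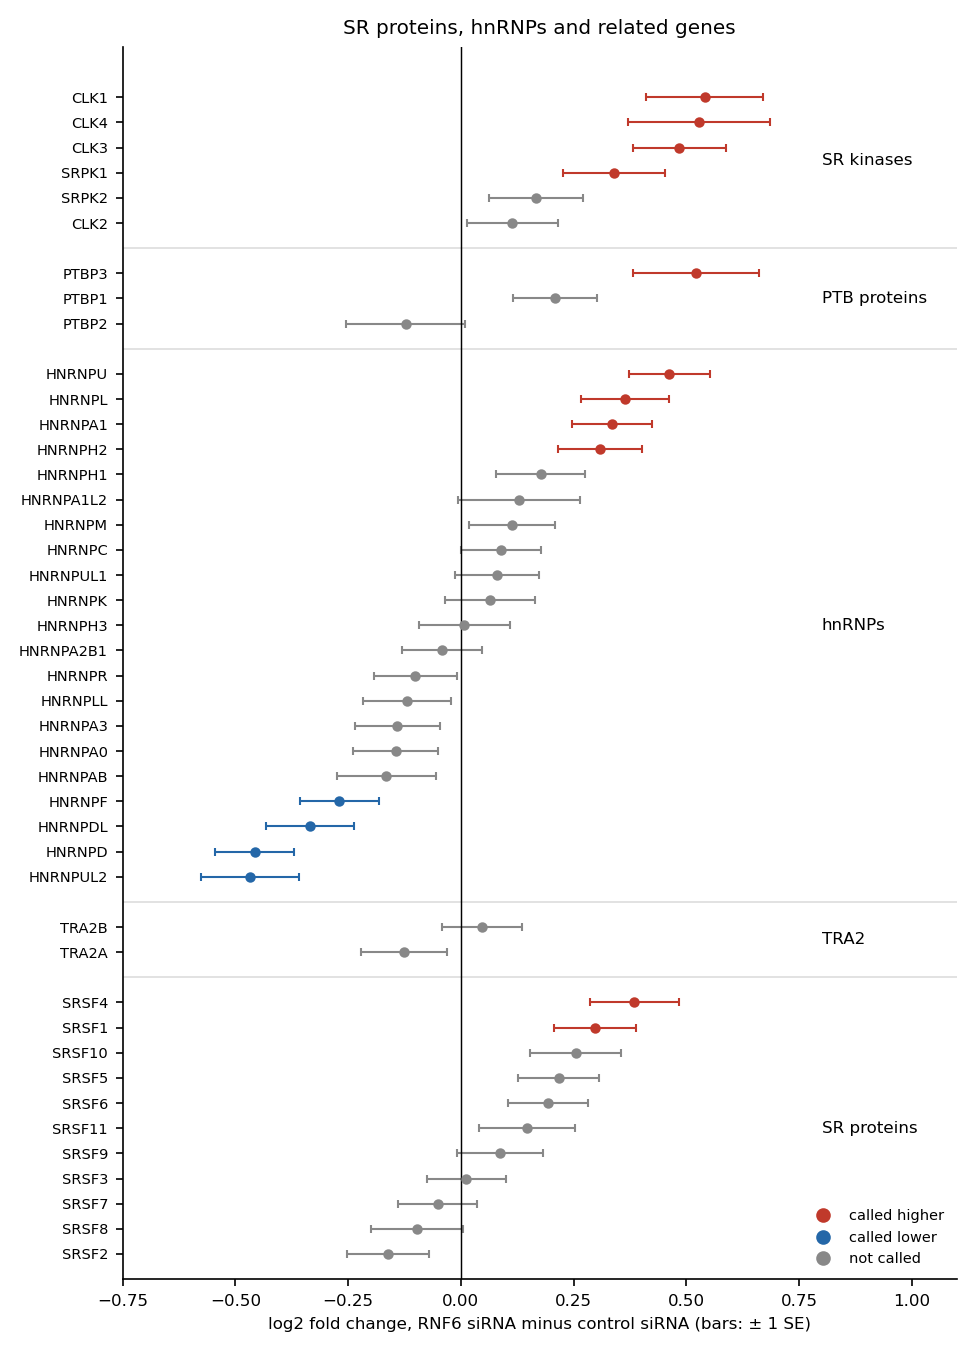
Log2 fold change (RNF6 siRNA minus control siRNA) of the 43 tested genes, by class, with bars of 1 SE and colours for genes called higher, called lower or not called. CLK1 has the highest value (0.54) and HNRNPUL2 the lowest (−0.47), and all 4 genes called lower are hnRNPs.

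**Figure D2:**
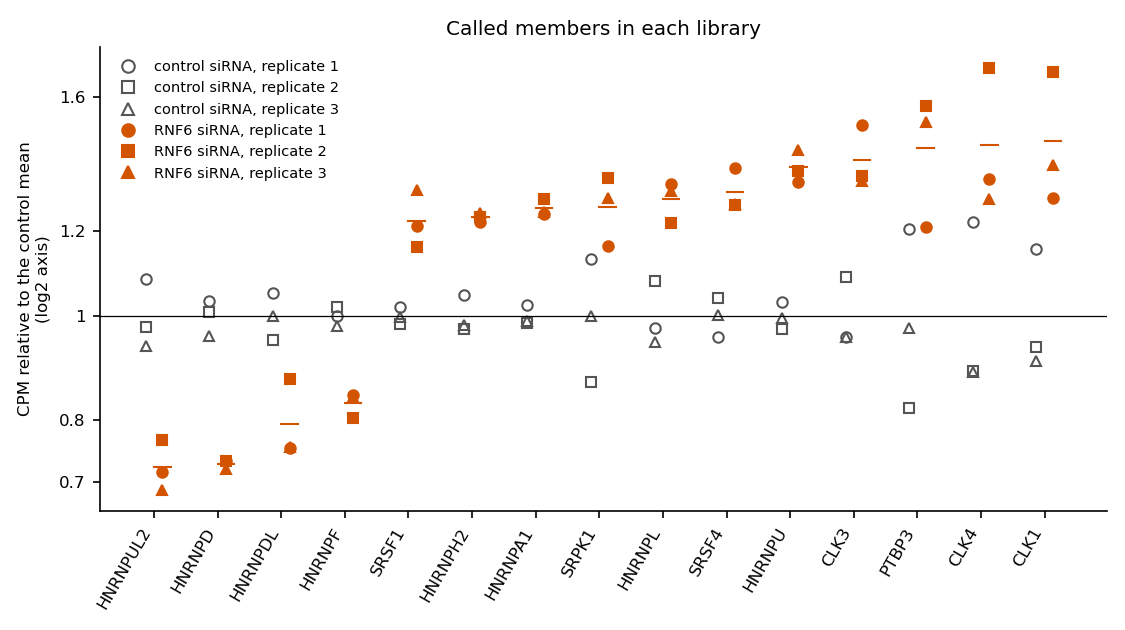
Level of the 15 called genes in each library, in CPM divided by the mean of the control libraries, on a log2 axis, with a short line at the mean of the knockdown libraries. For each gene the 3 knockdown libraries lie on one side of all 3 control libraries, although knockdown replicate 1 lies only just above control replicate 1 for PTBP3 and SRPK1.

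The DNA just before the start sites of the genes at the ends of this range, CLK1 and CLK4 on the higher side and HNRNPD and HNRNPUL2 on the lower side, is shown to let the reader compare promoters of genes that moved in opposite directions. Each run is the 120 bases before the first listed start in RefSeq (GRCh38.p14), written 5′ to 3′ on the gene's strand, which is the minus strand for all 4. Capitals mark matches to a GC box (GGGCGG or its reverse complement CCGCCC), an E-box (CACGTG) or a CCAAT box (CCAAT or ATTGG).
CLK1 at chr2:200864659-200864778: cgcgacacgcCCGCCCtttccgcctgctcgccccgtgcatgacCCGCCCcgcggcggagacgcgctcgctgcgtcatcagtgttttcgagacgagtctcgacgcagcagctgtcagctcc
CLK4 at chr5:178627051-178627170: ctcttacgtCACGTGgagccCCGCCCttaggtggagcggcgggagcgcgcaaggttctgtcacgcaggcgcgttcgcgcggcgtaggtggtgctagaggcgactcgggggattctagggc
HNRNPD at chr4:82373992-82374111: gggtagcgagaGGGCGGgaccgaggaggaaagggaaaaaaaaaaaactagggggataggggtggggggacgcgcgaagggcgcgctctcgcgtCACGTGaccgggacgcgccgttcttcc
HNRNPUL2 at chr11:62727458-62727577: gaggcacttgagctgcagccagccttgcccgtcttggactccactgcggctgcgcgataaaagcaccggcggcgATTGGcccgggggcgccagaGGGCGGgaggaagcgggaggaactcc
All 4 runs hold a GC box and between 65% and 70% G and C, and an E-box occurs on both sides, in CLK4 and in HNRNPD.

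Windows of 250 bases before the start were found for 40 of the 43 tested members, and 7 words were searched on both strands, with matches to different words allowed to overlap. A GC box was present in 27 of the 40 windows (67.5%), against 67.9% of the 9793 tested genes with a window and 42.3% of all 27303 genes with one. CCAAT occurred in 42.5% of member windows and 35.2% of tested genes, and the E-box CACGTG in 20% and 9.01%. The ETS-type word CCGGAAG was in 12.5% and 15.5%, and TATAAA in 12.5% and 5.29%. The spaced word TTCNNNGAA, the shape bound by STAT factors, was in 1 member window, that of HNRNPR, which was not called, and in 5.36% of tested genes. The word TGACGTCA (cyclic AMP response element) was in 0 of the 40, against 2.81% of tested genes. These are letter matches in 1 window per gene, and 14 of the members have more than 1 listed start.

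Of the 11 tested SR protein genes 2 rose and none fell. SRSF4, on chromosome 1, encodes an SR protein with a long arginine-serine tail. Its normalised read count, in CPM (read counts brought to a common library total with TMM scaling), was 75.4, 82.0 and 79.0 in control replicates 1, 2 and 3 and 108.4, 100.1 and 100.3 in the knockdown replicates. All 3 knockdown libraries stood above all controls, and SRSF4 rose 1.31-fold, from 78.8 ± 3.33 to 102.9 ± 4.76 CPM (SD, n = 3), with a log2 fold change of 0.38, an SE of 0.0980 and an adjusted p of 0.00952. The call was lost without control replicate 3 (adjusted p = 0.0597, where alternatives spanned 0.00516 to 0.0729).

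SRSF1, the founding member of the family and a splicing factor with oncogenic activity in several tumours, was at 257.0, 247.7 and 251.5 CPM in the control libraries and 305.7, 292.2 and 330.5 CPM in knockdown libraries. Again the groups did not overlap, and SRSF1 rose 1.23-fold (log2 fold change 0.30, SE 0.0907, adjusted p = 0.0238). This call was less firm. It was lost without control replicate 2 (adjusted p = 0.0551) or 3 (0.117), without knockdown replicate 1 (0.0508) or 3 (0.128) and without the filter on low counts (0.0700), and alternatives spanned 0.0173 to 0.128. In GENCODE 29, exons of other annotated genes cover 60.7% of the exon length of SRSF1. Reads in shared stretches may have been set aside by the counting, if its own annotation, whose release is not given, lists those genes.

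The other 9 tested SR proteins were not called, with log2 fold changes from −0.16 for SRSF2 to 0.25 for SRSF10. SRSF5 was at 267.2, 266.9 and 265.3 CPM in the control libraries and 307.8, 328.2 and 293.4 CPM in knockdown libraries, an adjusted p of 0.0794. SRSF6 (adjusted p = 0.112) and SRSF10 (0.0691) had the same shape, with every knockdown library above every control. For SRSF10 the means were 217.4 ± 22.5 and 259.3 ± 13.2 CPM, and it passed the threshold when control replicate 1 was left out (adjusted p = 0.0132) and with upper-quartile scaling (0.0499), while alternatives spanned 0.0132 to 0.228. SRSF2, which recognises enhancers of both guanine-rich and cytosine-rich sequence, was at 158.3 ± 2.38 and 141.4 ± 6.25 CPM, also without overlap (adjusted p = 0.190), but exons of other genes cover 36.7% of it. SRSF8 had lower values in every knockdown library too, with 42.4 ± 1.07 and 39.6 ± 0.454 CPM (adjusted p = 0.495).

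SRSF3, the smallest SR protein, and SRSF7, which with SRSF3 links splicing to nuclear export, showed no detectable difference. SRSF3 had 253.4 ± 10.7 and 255.5 ± 1.16 CPM (log2 fold change 0.01, SE 0.0877, adjusted p = 0.933), and SRSF7 had 194.4 ± 4.72 and 187.6 ± 2.56 CPM (−0.05, SE 0.0875, adjusted p = 0.691). SRSF9 (log2 fold change 0.09) and SRSF11 (0.15) were not called either, and exons of another gene cover 46.2% of SRSF9. SRSF12 had 10 reads in all 6 libraries together and was not tested. Summed over the 11 tested genes, SR protein transcripts came to 2366, 2305 and 2298 CPM in the control libraries and 2510, 2582 and 2582 CPM in knockdown libraries. The groups did not overlap in this sum, although 9 of its 11 genes were not called.

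The TRA2 proteins resemble SR proteins but carry arginine-serine stretches at both ends, and they bind enhancers rich in GAA repeats. TRA2A was at 150.5, 137.2 and 136.2 CPM in the control libraries and 122.6, 134.5 and 131.6 CPM in knockdown libraries. Every knockdown library was below every control by a small margin, and the difference did not pass (log2 fold change −0.13, SE 0.0956, adjusted p = 0.340). TRA2B had 226.3 ± 8.62 and 233.7 ± 4.11 CPM, with overlapping groups (adjusted p = 0.720).

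The hnRNPs gave the smallest adjusted p-values among the members, in opposite directions. HNRNPU, also known as SAF-A, is a large nuclear matrix protein that binds RNA and DNA and helps to organise chromatin. Its level was 552.1, 520.9 and 533.2 CPM in the control libraries and 714.9, 732.0 and 765.6 CPM in knockdown libraries. The lowest knockdown library lay well above the highest control, and HNRNPU rose 1.38-fold (log2 fold change 0.46, SE 0.0894, adjusted p = 0.00184). The call held in all 15 alternatives, with adjusted p up to 0.0235. The antisense row HNRNPU-AS1, which is no member, rose 1.63-fold at a low level, from 6.72 ± 2.06 to 10.98 ± 2.65 CPM (adjusted p = 0.0355). Its groups overlapped, with 8.09 CPM in knockdown replicate 1 and 8.53 CPM in control replicate 1. Its call was lost without control replicate 2 (adjusted p = 0.0995) or 3 (0.0803), or without knockdown replicate 2 (0.135) or 3 (0.131). It was also lost with the replicate block (0.105), and alternatives spanned 0.00219 to 0.135. The strand setting of the counting is not given, and without strand, reads of a gene and an antisense partner cannot be told apart wherever they overlap. No HNRNPU-AS1 symbol was found in GENCODE 29, so such an overlap was not measured, and exons of COX20 cover 15.6% of HNRNPU there.

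HNRNPUL2, a relative of HNRNPU that acts in the response to DNA double-strand breaks, was at 55.7, 50.3 and 48.2 CPM in the control libraries and 36.8, 39.4 and 35.4 CPM in knockdown libraries. It fell 1.38-fold, with no overlap (log2 fold change −0.47, SE 0.109, adjusted p = 0.00584), and the call held in all 15 alternatives, with adjusted p up to 0.0451. Exons of the readthrough gene HNRNPUL2-BSCL2, which had 4 reads in total, cover 44.2% of HNRNPUL2, so part of its reads is ambiguous to the counting. The third relative, HNRNPUL1, had 140.5 ± 2.20 and 148.4 ± 8.88 CPM and was not called (adjusted p = 0.543). Within this small family the 3 tested genes therefore showed a rise, a fall and no call.

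HNRNPD encodes AUF1, which binds AU-rich elements and promotes decay of the mRNAs that carry them, and HNRNPDL is its closest paralog. HNRNPD was at 311.3, 304.4 and 288.8 CPM in the control libraries and 220.9, 221.1 and 217.0 CPM in knockdown libraries, which hardly differed among themselves. It fell 1.37-fold (log2 fold change −0.46, SE 0.0876, adjusted p = 0.00173), and the call held in all 15 alternatives, with adjusted p up to 0.0259. HNRNPDL was at 248.2, 224.2 and 236.1 CPM in the control libraries and 178.1, 206.2 and 178.2 CPM after RNF6 siRNA. It fell 1.26-fold (adjusted p = 0.0192) on the same side as HNRNPD, and its call was lost without control replicate 3 (adjusted p = 0.0734), or without knockdown replicate 1 (0.0645) or 3 (0.0939), and alternatives spanned 0.0120 to 0.0973.

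The HNRNPH and HNRNPF proteins bind runs of guanines. HNRNPF was at 356.7, 364.0 and 349.0 CPM in the control libraries and 301.3, 286.3 and 299.5 CPM in knockdown libraries, and fell 1.21-fold (log2 fold change −0.27, SE 0.0871, adjusted p = 0.0308). HNRNPH2, on chromosome X, moved the other way, from 107.2, 99.5 and 100.4 CPM to 125.3, 126.8 and 127.8 CPM, a rise of 1.24-fold (log2 fold change 0.31, SE 0.0932, adjusted p = 0.0228). Neither pair of groups overlapped, yet both calls were fragile. That of HNRNPF was lost without control replicate 2 (adjusted p = 0.0660) or 3 (0.0898), without knockdown replicate 1 (0.0644), 2 (0.0898) or 3 (0.0833) and without the filter on low counts (0.0716), and alternatives spanned 0.0255 to 0.133. That of HNRNPH2 was lost without control replicate 2 (adjusted p = 0.0662) or 3 (0.128), without knockdown replicate 1 (0.0535), 2 (0.0554) or 3 (0.0939) and without the filter (0.0732), and alternatives spanned 0.0136 to 0.128. HNRNPH1 had many more reads, with 642.0, 558.6 and 596.9 CPM in the control libraries and 620.6, 710.1 and 701.3 CPM in knockdown libraries. Its groups overlapped and it was not called, with means of 599.2 ± 41.8 and 677.3 ± 49.3 CPM (log2 fold change 0.18, SE 0.0986, adjusted p = 0.188). HNRNPH3 had 82.7 ± 5.81 and 83.1 ± 3.19 CPM (adjusted p = 0.960).

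HNRNPL binds CA-rich elements and silences or enhances exons by position. It was at 105.8, 116.8 and 102.6 CPM in the control libraries and 143.9, 132.4 and 142.0 CPM in knockdown libraries, and rose 1.29-fold (log2 fold change 0.36, SE 0.0979, adjusted p = 0.0127). The call was lost without control replicate 3 (adjusted p = 0.0989) or knockdown replicate 3 (0.0651), and alternatives spanned 0.00762 to 0.0989. Its paralog HNRNPLL, known for CD45 exon skipping in lymphocytes, had 90.2 ± 4.80 and 83.1 ± 1.97 CPM. Every knockdown library of HNRNPLL was below every control, but the difference was not called (adjusted p = 0.376).

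HNRNPA1, a major splicing silencer that opposes SRSF1 at many exons, rose 1.26-fold. It was at 156.8, 150.9 and 151.4 CPM in the control libraries and 190.6, 197.0 and 191.5 CPM in knockdown libraries (log2 fold change 0.34, SE 0.0883, adjusted p = 0.0114), 2 tight groups with a clear gap. The call was lost without control replicate 3 (adjusted p = 0.0793, where alternatives spanned 0.00360 to 0.0815). Its level is uncertain, because the 75 rows named as HNRNPA1 pseudogenes held between 58.3% and 63.0% of the reads of gene and pseudogene rows together, most of them in HNRNPA1P10 and HNRNPA1P48. Those rows rose with it, HNRNPA1P10 1.37-fold (adjusted p = 0.00556) and HNRNPA1P48 1.39-fold (0.00241), and the call of HNRNPA1P10 was lost without control replicate 3 (0.0538, where alternatives spanned 0.00163 to 0.0538). With all pseudogene rows added to the gene they are named after, an alternative chosen after seeing the data, HNRNPA1 rose with a log2 fold change of 0.41 (adjusted p = 0.00360). Whether these reads come from the gene or the pseudogenes was not tested.

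**Figure D3:**
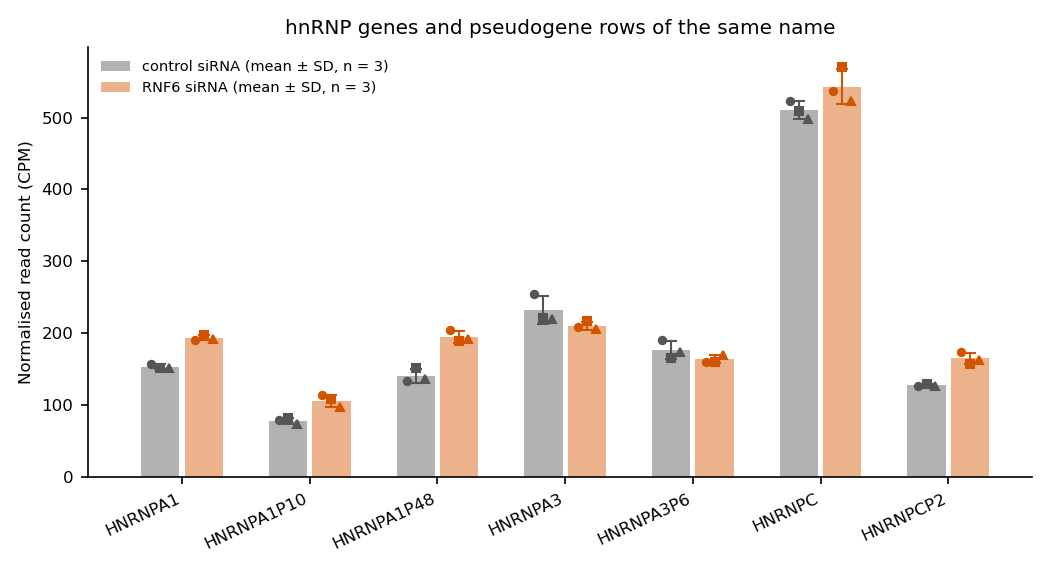
Normalised read count (CPM) of 3 hnRNP genes and of the pseudogene rows that took most reads, with bars for the mean, error bars for the SD (n = 3 libraries per group) and a point per library. HNRNPA1, HNRNPA1P10, HNRNPA1P48 and HNRNPCP2 are higher in all knockdown libraries, whereas for HNRNPC and HNRNPA3P6 the groups overlap.

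The same issue touched HNRNPC and HNRNPA3. HNRNPC, which binds uridine tracts and keeps cryptic exons silent, was at 510.6 ± 12.5 and 543.2 ± 24.3 CPM and was not called (log2 fold change 0.09, adjusted p = 0.477). Its pseudogene row HNRNPCP2 rose 1.3-fold, from 126.0, 128.7 and 126.4 CPM to 173.3, 157.3 and 163.0 CPM (adjusted p = 0.00776). That call was lost without control replicate 3 (0.0571) and with the replicate block (0.0651), and alternatives spanned 0.00346 to 0.0651. Rows named as HNRNPC pseudogenes held between 19.8% and 24.6% of the combined reads, and the combined row was not called (log2 fold change 0.15, adjusted p = 0.215). For HNRNPA3 the pseudogene rows held between 46.2% and 49.0%. HNRNPA3 had 231.9 ± 19.4 and 210.3 ± 5.70 CPM, with no overlap, and was not called alone (adjusted p = 0.277) or with its pseudogene rows (0.319). Of 128 pseudogene rows in all, 75 had 0 reads in every library and 13 had enough reads to be tested.

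Apart from HNRNPU, the 3 hnRNP genes with most reads, HNRNPA2B1, HNRNPH1 and HNRNPK, were not called. HNRNPA2B1, which binds UAG-type motifs and sorts some RNAs for transport, was at 1540, 1520 and 1515 CPM in the control libraries and 1478, 1521 and 1443 CPM in knockdown libraries (log2 fold change −0.04, SE 0.0891, adjusted p = 0.752). HNRNPK, a poly(C)-binding protein, was at 681.3, 608.4 and 565.6 CPM and 616.4, 674.5 and 648.9 CPM (log2 fold change 0.06, SE 0.0992, adjusted p = 0.657). In both genes the libraries of the groups were interleaved. The remaining uncalled hnRNPs were HNRNPA0, HNRNPAB, HNRNPM, HNRNPR and HNRNPA1L2, with log2 fold changes from −0.17 for HNRNPAB to 0.13 for HNRNPA1L2, and overlapping groups. HNRNPAB passed the threshold without control replicate 1 (adjusted p = 0.0391, where alternatives spanned 0.0391 to 0.681). In that library its level was 206.9 CPM against 271.4 and 239.9 CPM in control replicates 2 and 3. HNRNPCL1 had 1 read in all and was not tested. The sum over the 21 tested hnRNPs was 6626 ± 158.3 CPM in the control libraries and 6746 ± 91.8 CPM in knockdown libraries, with overlapping ranges.

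Levels can be set between genes only per length, and here the order depended on the length used. Per kilobase of all annotated exons, HNRNPA2B1 had the highest control level (164.5 CPM per kilobase), and per kilobase of the median annotated transcript HNRNPH1 did (833.3). The rank correlation of these measures over the 43 genes was 0.68. With either measure PTBP2, CLK4 and HNRNPA1L2 had far lower control levels than HNRNPA2B1, at 1.54, 2.38 and 12.8 CPM per kilobase of annotated exons. On that measure CLK3 (4.16), SRSF4 (8.86), HNRNPUL2 (9.49) and SRSF8 (10.5) also lay below HNRNPA1L2. Per kilobase of the median transcript CLK3 was at 99.0.

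The PTB proteins bind pyrimidine tracts and repress many exons, among them exons of each other. PTBP3 rose 1.43-fold (log2 fold change 0.52, SE 0.140, adjusted p = 0.0126). It was at 214.2, 145.8 and 173.1 CPM in the control libraries and 215.4, 279.4 and 269.7 CPM in knockdown libraries. Control replicate 1 and knockdown replicate 1 thus had nearly the same level, and the difference rests on the other libraries. The call was lost without control replicate 3 (adjusted p = 0.0630), or without knockdown replicate 2 (0.0655) or 3 (0.0683), and alternatives spanned 4.06e-05 to 0.0683. PTBP1, the ubiquitous form, was at 316.8, 319.2 and 322.9 CPM in the control libraries and 395.1, 341.4 and 371.3 CPM after RNF6 siRNA, without overlap but not called (log2 fold change 0.21, SE 0.0921, adjusted p = 0.0992). PTBP2, the form of developing neurons whose mRNA PTBP1 keeps low elsewhere, was at 19.97 ± 1.81 and 18.4 ± 1.87 CPM (adjusted p = 0.511).

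The CLK kinases are dual-specificity enzymes of the nucleus that phosphorylate SR proteins and release them from speckles. CLK1, on chromosome 2, was at 92.7, 75.2 and 73.0 CPM in the control libraries and 103.6, 135.8 and 111.2 CPM in knockdown libraries. It rose 1.45-fold (log2 fold change 0.54, SE 0.129, adjusted p = 0.00665), the largest fold among the members, and the call was lost without control replicate 3 (adjusted p = 0.0541, where alternatives spanned 9.38e-05 to 0.0541). CLK4, its closest relative, was at 23.1, 16.8 and 16.7 CPM and 25.4, 32.2 and 24.3 CPM. It rose 1.44-fold (log2 fold change 0.53, SE 0.158, adjusted p = 0.0215). Control replicate 1 and knockdown replicate 2 were the high libraries of their groups for both genes. The CLK4 call was lost without control replicate 3 (adjusted p = 0.120) or knockdown replicate 2 (0.0965), and alternatives spanned 5.67e-04 to 0.120.

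CLK3 was at 81.4, 92.6 and 81.4 CPM in the control libraries and 128.3, 115.1 and 113.8 CPM in knockdown libraries, and rose 1.40-fold (log2 fold change 0.48, SE 0.104, adjusted p = 0.00343). Here the library order differed from that of CLK1, with knockdown replicate 1 highest, and the call held in all 15 alternatives (adjusted p up to 0.0364). CLK2 had 63.5 ± 3.15 and 68.7 ± 3.22 CPM, with overlap, and was not called (log2 fold change 0.11, SE 0.101, adjusted p = 0.415).

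SRPK1, the kinase that loads SR proteins for nuclear import, was at 132.6, 102.0 and 117.4 CPM in the control libraries and 136.4, 157.9 and 151.2 CPM in knockdown libraries. It rose 1.27-fold (log2 fold change 0.34, SE 0.113, adjusted p = 0.0353), although control replicate 1 almost reached knockdown replicate 1. The call was lost without control replicate 2 (adjusted p = 0.123) or 3 (0.129), or without knockdown replicate 2 (0.121) or 3 (0.127), and alternatives spanned 0.00286 to 0.132. SRPK2 had 86.9 ± 4.60 and 97.7 ± 8.42 CPM and was not called (adjusted p = 0.241). The 6 kinase genes summed to 480.7, 434.3 and 441.1 CPM in the control libraries and 552.9, 612.2 and 569.3 CPM in knockdown libraries.

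A library feature differed within both groups. The share of listed reads that fell in no annotated feature was 9.04%, 5.90% and 7.07% in control replicates 1, 2 and 3 and 7.26%, 8.60% and 9.23% in the knockdown replicates. Of the 15 called genes, 11 were highest in control replicate 1 within the control group, the control with the highest such share, 8 of them called higher and 3 called lower after RNF6 siRNA. Within the knockdown group 7 of the 15 were lowest in replicate 1, which had the lowest share of that group. In that group 8 were highest in replicate 2, and only 3 in replicate 3, which had the highest share. Control replicate 1 and knockdown replicate 2 also had the fewest reads assigned to genes in their groups (7173957 and 6808771). These orders were counted over the 15 called genes only. They therefore do not set the called genes apart from the uncalled members or from all genes tested. Control replicate 1 was also the highest control for uncalled members such as HNRNPK and TRA2A, and the lowest for HNRNPAB. The part of the share of reads in no annotated feature, and of the number of reads, in the calls was not tested.

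Annotated transcripts that the rule did not use set the members apart as a description. In GENCODE 29, 32 of the 43 tested members (74.4%) had at least 1 transcript classed as subject to nonsense-mediated decay, compared with 43.3% of 12035 tested protein-coding genes, and 69.8% against 58.6% had a retained-intron transcript. The members also had more annotated transcripts, a median of 12 against 8. A decay transcript was annotated for 9 of the 11 genes called higher, 2 of the 4 called lower and 21 of the 28 not called. HNRNPU and SRSF7 had the most, with 9 and 6. Which of these transcripts changed cannot be read from counts per gene.

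Other genes of the splicing pathway were counted in 7 lists, with 144 tested genes in all, of which 25 were called higher and 20 lower, or 31.2%, beside the 32.7% of all genes. For recognition of the splice sites by the U1 and U2 particles, 5 of 25 tested genes rose and 2 fell (median log2 fold change −0.05, against 0.01 for all genes). The subunits of U2AF, the dimer that binds the polypyrimidine tract and the AG at the end of an intron, went in opposite directions. U2AF2, the large subunit, fell 2.35-fold from 174.7 ± 13.5 to 74.2 ± 4.29 CPM (adjusted p = 3.80e-06), and U2AF1, the small subunit, rose 1.54-fold from 147.4 ± 7.85 to 226.7 ± 9.34 CPM (adjusted p = 2.99e-04). SF3B2, part of the U2 particle, rose 1.71-fold and the helicase gene DDX46 fell 1.39-fold. Of 7 tested Sm proteins, which form the ring of the spliceosomal particles, SNRPB fell 1.42-fold and none rose in the edgeR test, nor did any have a higher value at an unadjusted p below 0.05 (median log2 fold change 0.01).

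In the tri-snRNP and catalytic core, 6 of 27 genes fell and 3 rose (median −0.11). The falls with the smallest adjusted p were those of the helicase genes DHX16 (1.39-fold, adjusted p = 0.00406) and SNRNP200 (1.28-fold, 0.00952), and SART1 (1.54-fold) and PLRG1 (1.26-fold) rose. The call of SNRNP200 was lost without control replicate 3 (adjusted p = 0.0607, where alternatives spanned 0.00272 to 0.0607), and that of PLRG1 without control replicate 3 (0.0960), or without knockdown replicate 2 (0.0568) or 3 (0.0591), where they spanned 0.0122 to 0.0960. Among 19 SR-related proteins, which carry arginine-serine repeats but act beside the classical family, 6 rose and 3 fell (median 0.05). SUGP1 rose 1.5-fold and RSRC2 1.41-fold, while BCLAF1 fell 1.38-fold and SCAF8 1.38-fold.

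Of 38 tested splicing regulators outside both families, 9 rose and 6 fell (median 0.01). CIRBP, a cold-inducible RNA-binding protein gene, rose 2.22-fold from 99.5 ± 1.81 to 220.3 ± 18.4 CPM (adjusted p = 4.57e-06), and TAF15 rose 1.65-fold. RBFOX2 and MBNL1, regulators of exons that change in development and in epithelial-mesenchymal transition, fell 1.47-fold and 1.57-fold.

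The step that carries SR proteins into the nucleus included the largest fall of its list. TNPO3, the import receptor of phosphorylated SR proteins, fell 2.14-fold from 86.1 ± 3.02 to 40.2 ± 1.49 CPM (adjusted p = 8.02e-06), and the phosphatase gene PPP1CB fell 1.39-fold (adjusted p = 0.0144), a call that was lost without knockdown replicate 3 (0.0681, where alternatives spanned 6.63e-04 to 0.0739). None of the 13 genes of this list rose in the edgeR test, although 3 were higher at an unadjusted p below 0.05 (median −0.02). SRPK1, CLK1, CLK3 and CLK4 thus rose while the importer fell. Of 15 genes of nonsense-mediated decay, 2 rose and 0 fell in the edgeR test, with 0 lower at an unadjusted p below 0.05 (median 0.10). Those that rose were CASC3 (1.3-fold, adjusted p = 0.0116), whose call was lost without control replicate 3 (0.0600, where alternatives spanned 0.00464 to 0.0731), and UPF2 (1.25-fold, adjusted p = 0.0445). The UPF2 call was lost without control replicate 2 (adjusted p = 0.123) or 3 (0.182), without knockdown replicate 2 (0.157) or 3 (0.124), without the filter (0.0699), without composition factors (0.0557) and with DESeq2 (0.0538), and alternatives spanned 0.00984 to 0.182.

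**Figure D4:**
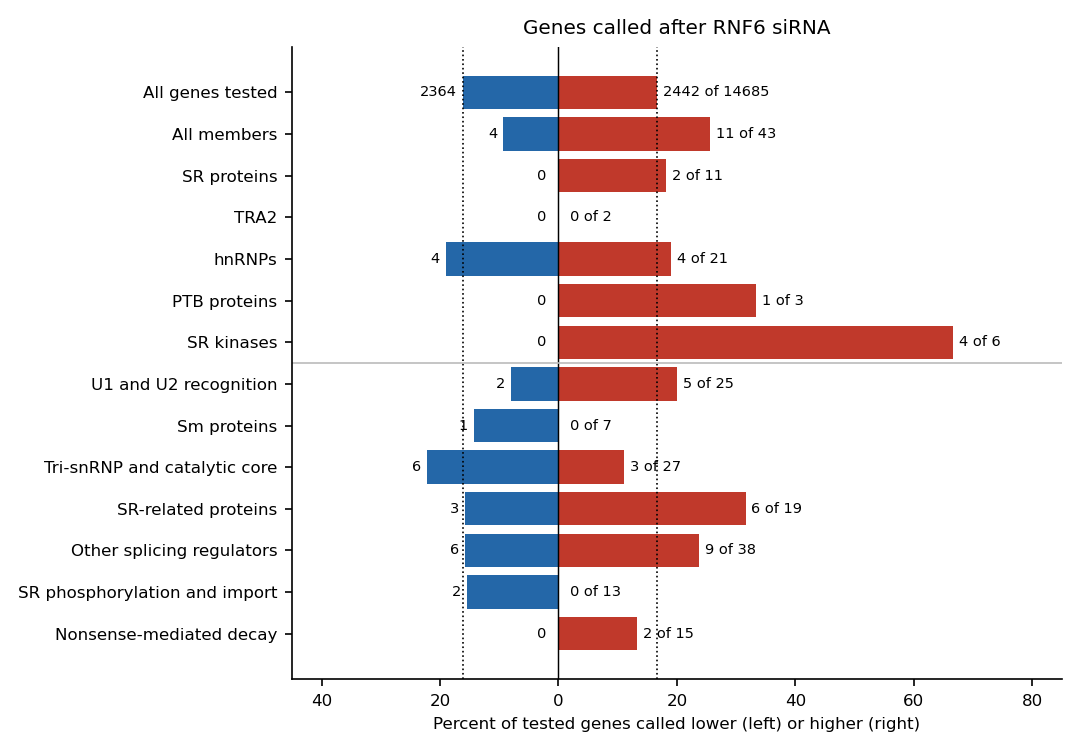
Percent of tested genes called lower (left) and higher (right) after RNF6 siRNA, for all genes, for the members and their classes, and for the 7 lists of other splicing genes, with the counts beside the bars and dotted lines at the shares over all genes (16.1% and 16.6%). The SR kinases reach 4 of 6 higher, whereas the lists scatter on both sides of the dotted lines.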

How the data were processed

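RNA of 6 libraries was sequenced, 3 per group, with groups and replicate numbers from the sample titles. The authors deposited raw read counts per gene symbol. Per the submitters' processing notes these came from TopHat2 2.0.11 and HTSeq on hg19. Neither strand setting nor annotation release is given in the sources used here. Rows for unassigned reads (27.3% to 29.4% of listed reads) were left out.

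Counts were fitted as deposited in edgeR 4.0.16 (R 4.3.3): filterByExpr (minimum count 10, minimum total 15), TMM, a robust quasi-likelihood model with group as its only term, two-sided tests, and Benjamini-Hochberg adjustment over 14685 genes. The call threshold was an adjusted p of 0.05, and "rose" or "fell" is used only of such genes. Fold changes on the log2 scale (prior count 0.125) are positive where RNF6 siRNA is higher, and the SE is the fold change over the square root of F. Alternatives were upper-quartile or no composition factors, DESeq2 1.42.0, limma-voom (limma 3.58.1), other filters, no robust estimation, a replicate block, each library left out, and merged pseudogene rows. The labels do not say that replicates were separate cultures. The p-values set the group difference only against the spread among these libraries, which may be technical.

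The members and lists were chosen with earlier results of these data known. Library values are given for called members with a fold of at least 1.3 and a mean of at least 5 CPM, for the 3 uncalled members with most reads, and for some others chosen after their values were seen; from each list, the 2 calls per direction with the smallest adjusted p are named. List symbols were matched through RefSeq synonyms. GENCODE 29 (GRCh38, not the build of the counts) gave lengths, overlaps and transcript classes.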

Additional observations from a re-analysis of the deposited data

How the results depend on the processing

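Of 15 alternatives, 14 were planned. The counts of 11 members higher and 4 lower stayed within 1.5 times under both other scalings, DESeq2, limma-voom, both other filters, the fit without robust estimation and the merged pseudogene rows. With the replicate block they were 3 and 2 (CLK1, CLK3, HNRNPU, HNRNPD and HNRNPUL2), and leaving out each library gave 2 to 12 higher and 2 to 5 lower. Over all genes, 2442 higher and 2364 lower became 1421 and 1321 with the block, 1514 and 1595 without control replicate 3, and 1529 and 1478 without RNF6 siRNA replicate 3. Over all genes tested, same-numbered samples did not deviate together (correlations of −0.50, −0.28 and 0.06). These correlations also hold other differences between libraries, so they cannot decide whether same-numbered libraries shared a day or culture. The labels do not say that the numbers mark pairs, and the block was therefore kept as an alternative. Among the list genes named above, the call was lost with the block for SNRPB (adjusted p = 0.0521), SNRNP200 (0.0533), SCAF8 (0.0553), BCLAF1 (0.0629), CASC3 (0.0731), PPP1CB (0.0739), PLRG1 (0.0919) and UPF2 (0.159). With 1 library left out, the test has fewer samples. No called member changed sign, and no uncalled member was called in the opposite direction. For the lists, the ranges of higher and lower calls were 4 to 8 and 2 to 5 (U1 and U2), 0 and 0 to 2 (Sm), 1 to 4 and 1 to 7 (tri-snRNP and core), 2 to 6 and 0 to 3 (SR-related), 4 to 10 and 4 to 8 (other regulators), 0 to 2 and 1 to 2 (phosphorylation and import), and 0 to 3 and 0 (decay).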
